A study of Mus musculus with 8 samples.

Results

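Glycolysis breaks glucose down to pyruvate, and the hypoxia response adjusts a cell to scarce oxygen. The genes followed here are 34 genes of these processes, in 2 arms. The glycolysis arm holds 19 genes: the glucose transporters Slc2a1 and Slc2a3, the glycolytic enzymes and the lactate dehydrogenases. The hypoxia arm holds 15 genes: Hif1a, a subunit of the hypoxia-inducible factor Hif, and 14 genes known as targets of Hif. The rule that lists them uses no measured value, but the genes were proposed with earlier results of these data known. Each gene was read from its brightest probe set among those annotated with that symbol and no other. On that rule 30 of the 34 genes had a probe set, of 18140 genes in all, 16 in the glycolysis arm and 14 in the hypoxia arm. Genes brighter than the median of the array on 2 or more of the 8 arrays were tested, 12394 in number and among them all 30. Gpi1, Eno1 and Bnip3l were not analysed here, because no probe set carries only their symbol, and Gapdh was read only from array control probe sets, which were not tested.

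The cells were V6.5 mouse embryonic stem cells, a pluripotent line derived from the inner cell mass. All were infected with virus in 8 µg/ml polybrene to deliver a short hairpin RNA, which degrades its target mRNA. They were kept in 4 µg/ml puromycin for 4 days, and RNA was taken after 5 days for 1 Affymetrix array per sample. No group was left without virus and no low-oxygen treatment is described. The CapH2 knockdown depleted Ncaph2, a subunit of condensin II, with hairpins 3 and 4 on 1 array each. The Smc2 knockdown depleted the core subunit shared by condensin I and II, with hairpins 1 and 2 on 1 array each. The Smc1 knockdown depleted the cohesin subunit Smc1a, and the control hairpin was directed against GFP. Both of these groups were 2 biological replicates of 1 hairpin, so effects of that hairpin on other genes cannot be told apart from those of its target. In the CapH2 and Smc2 groups the difference between hairpins and the difference between cultures cannot be told apart either. All 3 knockdowns were compared with the same 2 GFP arrays.

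Values are intensities, the brightness of a probe set on a linear scale, and array medians lay between 62.5 and 74.5. Each target was lowest in its own knockdown, at 12.5% of GFP for Ncaph2, 32.0% for Smc2 and 12.6% for Smc1a (limma adjusted p = 0.00115, 0.0154 and 7.81e-05). Leaving out 1 array ended the call of Smc2 in 5 of 8 fits (adjusted p up to 0.155), that of Ncaph2 in 2 of 8 (up to 0.0918) and that of Smc1a in 0 of 8. The control probe sets of Actb give a ratio of 3' to 5' signal that reflects how intact the RNA was and how far it was copied. On the CapH2 arrays this ratio was 1.67 and 1.98, and on the Smc2 arrays 1.82 and 2.18. It was 1.70 and 1.84 on the Smc1 arrays and 2.18 and 2.04 on the GFP arrays. Both CapH2 arrays and both Smc1 arrays thus lay below both GFP arrays, while the Smc2 arrays overlapped with GFP. The same ratio of the Gapdh controls did not share this order. It was 0.790 and 0.863 on CapH2, 0.813 and 0.845 on Smc2, 0.833 and 0.862 on Smc1, and 0.864 and 0.857 on GFP. There CapH2 hairpin 4 and Smc1 replicate 2 lay between the GFP arrays, and both Smc2 arrays lay below them. All 12 embryonic stem cell markers lay above the array median on all 8 arrays. Their summed intensity was 143715 and 149282 on the GFP arrays, 126193 to 142769 on the condensin knockdown arrays and 90703 and 108719 on the Smc1 arrays. Of the 12 markers, 7 were called lower in the Smc1 knockdown, beside 4.69% of all genes tested. In bulk RNA, fewer cells of a type and less RNA per cell cannot be told apart.

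Glucose enters cells through facilitative transporters and is split by a chain of enzymes into pyruvate, which lactate dehydrogenase turns into lactate or the mitochondrion oxidises. Hif is a pair of proteins whose alpha subunit is marked for destruction by prolyl hydroxylases when oxygen is present. When oxygen is scarce the pair binds DNA at short hypoxia response elements and raises glycolytic enzymes, glucose transporters, pyruvate dehydrogenase kinases and secreted vessel factors. Many genes of the glycolysis arm are therefore also Hif targets, and the arms divide the genes by what the proteins do, not by who regulates them. Mouse embryonic stem cells are known for a high rate of glycolysis even in the presence of oxygen.

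The promoters of the 4 members that passed the test in the Smc1 knockdown are shown because these are the genes on which the comparison turns. They run from 250 bases before to 50 bases after the annotated gene start, 5′ to 3′ on the strand of the gene, from RefSeq on GRCm38.p6. Capitals mark the core of the hypoxia response element, ACGTG or GCGTG, or its reverse complement CACGT or CACGC. Slc2a1 is at chr4:119108495-119108794 on the plus strand and Pdk1 at chr2:71872974-71873273 on the plus strand. Adm is at chr7:110627407-110627706 on the plus strand and Vegfa at chr17:46032328-46032627 on the minus strand. Pdk1 and Vegfa each have 2 windows in the table, of which the first is shown.
Slc2a1: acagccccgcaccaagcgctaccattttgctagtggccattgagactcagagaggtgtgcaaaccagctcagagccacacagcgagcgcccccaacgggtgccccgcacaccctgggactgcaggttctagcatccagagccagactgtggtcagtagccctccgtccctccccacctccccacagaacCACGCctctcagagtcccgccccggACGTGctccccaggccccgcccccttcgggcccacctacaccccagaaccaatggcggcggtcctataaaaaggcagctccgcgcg
Pdk1: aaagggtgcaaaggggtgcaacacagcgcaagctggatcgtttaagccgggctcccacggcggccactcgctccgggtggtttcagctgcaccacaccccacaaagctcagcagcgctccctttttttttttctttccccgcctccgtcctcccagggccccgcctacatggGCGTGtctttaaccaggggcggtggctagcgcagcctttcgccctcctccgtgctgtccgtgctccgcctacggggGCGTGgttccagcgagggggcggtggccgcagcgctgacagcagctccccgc
Adm: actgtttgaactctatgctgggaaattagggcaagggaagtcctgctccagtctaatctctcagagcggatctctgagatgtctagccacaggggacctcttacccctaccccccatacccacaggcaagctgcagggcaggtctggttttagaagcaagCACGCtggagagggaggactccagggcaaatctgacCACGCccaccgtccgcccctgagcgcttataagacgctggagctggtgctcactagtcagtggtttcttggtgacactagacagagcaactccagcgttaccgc
Vegfa: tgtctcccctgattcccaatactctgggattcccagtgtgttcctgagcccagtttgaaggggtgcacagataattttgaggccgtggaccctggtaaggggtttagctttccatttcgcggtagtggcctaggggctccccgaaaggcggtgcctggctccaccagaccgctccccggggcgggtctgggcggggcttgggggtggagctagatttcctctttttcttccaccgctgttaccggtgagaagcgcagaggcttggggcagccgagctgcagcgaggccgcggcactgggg
The Slc2a1 window held 1 ACGTG and 1 GCGTG, the Pdk1 and Adm windows each held 2 GCGTG, and the first Vegfa window held neither core. That says only that these letters are not in that window, and the other Vegfa window held both.

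Windows of this length were listed for 31 of the 34 members, 46 windows in all, and the cores were counted on both strands. ACGTG or GCGTG stood in 22 of 29 windows of the glycolysis arm (75.9%), in 14 of 17 windows of the hypoxia arm (82.4%) and in 43.8% of all 32851 windows. By gene, 28 of 31 members had a core in at least 1 window (90.3%), against 46.7% of all genes. The members have more windows per gene (46 for 31 genes) than all genes do (32851 for 27025), so the shares by gene are not on equal terms. Many members were also listed as known Hif targets and base composition was not matched, so the higher shares are no independent result. The E-box CACGTG, the site of Myc and related factors, which contains ACGTG, stood in 8.70% of the members' windows and 7.15% of all windows. A match describes the letters and is not evidence of binding. No window was listed for Slc2a3, Bnip3l and Ndrg1.

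A gene was called at an adjusted p below 0.05 from limma (Benjamini-Hochberg over the 12394 genes of a comparison), and every log2 change is on the scale log2(value + 16). In the Smc1 knockdown against GFP, 4 of the 30 members were called, beside 14% of all genes tested. The transporter Slc2a1, the kinase Pdk1 and the secreted peptide Adm rose, and the vessel growth factor Vegfa fell. Of the members 3 were called higher and 1 lower, beside 9.3% and 4.69% of all genes. At an unadjusted p below 0.05 there were 8 members, and 31.2% of all genes. In the CapH2 knockdown limma called 0 of 30 members, beside 0.0161% of all genes, and 5 members had an unadjusted p below 0.05, beside 12.6%. In the Smc2 knockdown it called 0 of 30, beside 0.0161%, and 6 had an unadjusted p below 0.05, beside 12.6%. The 1734 genes behind the 14% became 138 without Smc1 replicate 1, 228 without GFP replicate 1, 555 without GFP replicate 2, 1046 without Smc1 replicate 2 and 588 with the Actb ratio of each array as a covariate, so this background rests on single arrays as the members' calls do. In the fit to all arrays the share of members called was near that of all genes in each of these comparisons.

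**Figure D1:**
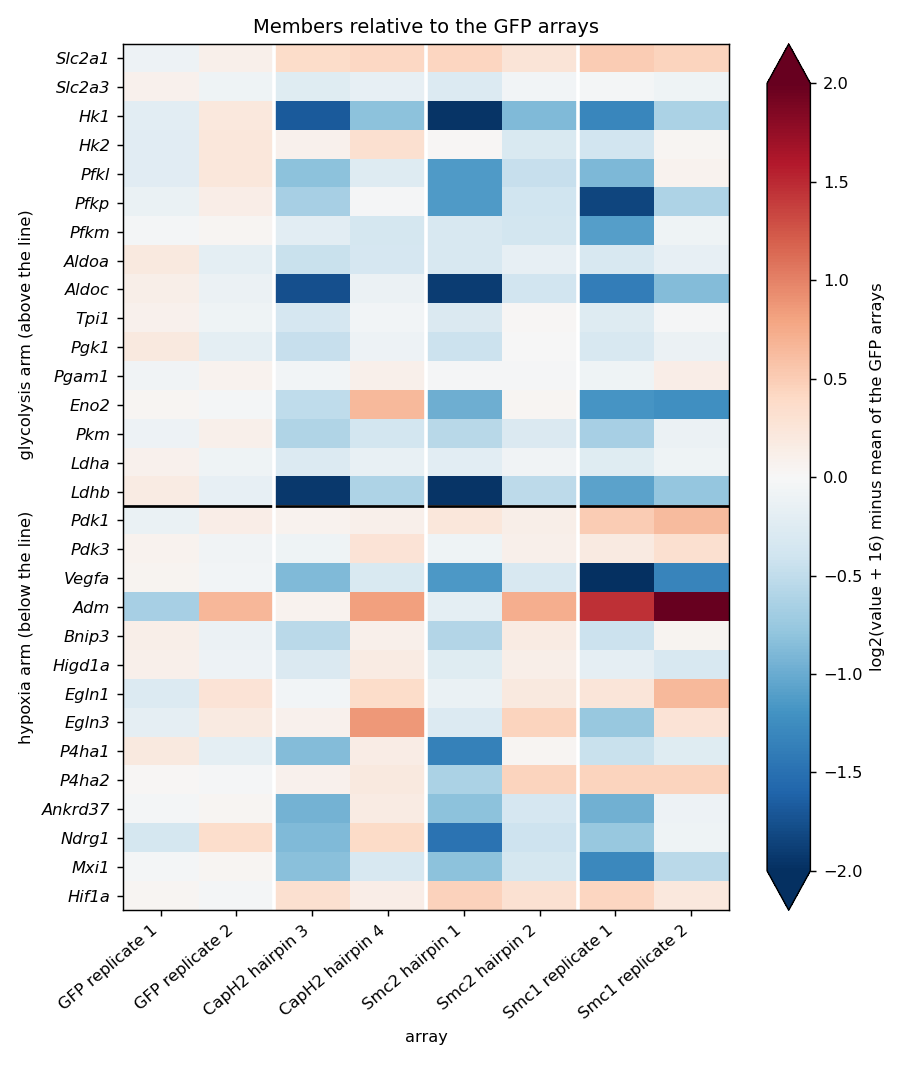
Heat map of the 30 measured members (rows, glycolysis arm above the line, hypoxia arm below) on the 8 arrays (columns), coloured by log2(value + 16) minus the mean of the GFP arrays. Slc2a1 is red on all 6 knockdown arrays, Adm is darkest red and Vegfa darkest blue on the Smc1 arrays, and Hk1, Ldhb and Aldoc are bluest on CapH2 hairpin 3 and Smc2 hairpin 1.

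Each arm was summarised by its median and its counts. The median log2 change of the glycolysis arm was -0.28 in the CapH2 knockdown, -0.29 in the Smc2 knockdown and -0.32 in the Smc1 knockdown, beside 0.01, -0.01 and 0.03 over all genes. It stayed below 0 under quantile normalization (-0.12, -0.24 and -0.20) and under median centring (-0.21, -0.19 and -0.30). The values were negative for 12, 15 and 14 of its 16 genes. The median of the hypoxia arm was 0.01, -0.08 and -0.22, and in the Smc2 knockdown it turned to 0.02 under median centring. With the Actb ratio of each array as a covariate, the medians of the glycolysis arm became 0.02, -0.18 and 0.05, and those of the hypoxia arm 0.36, 0.06 and 0.52. With that term the glycolysis arm kept a negative median only in the Smc2 knockdown. In the CapH2 and Smc1 knockdowns both arrays had a lower ratio than both GFP arrays, so there the ratio and the knockdown cannot be told apart.

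The 2 arrays of a knockdown can lie on one side of both GFP arrays. In the CapH2 knockdown 8 of the 16 glycolysis genes were below both GFP arrays and 1 above, where 21.9% of all genes were below and 25.3% above. In the Smc2 knockdown 7 were below and 1 above, beside 21.7% and 23.1%. In the Smc1 knockdown 8 were below and 1 above, beside 28.4% and 34.5%. Of the 14 hypoxia genes, 2 were below and 2 above in CapH2, 4 and 1 in Smc2, and 5 and 5 in Smc1. The single glycolysis gene above GFP was Slc2a1 in each of the 3 knockdowns.

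**Figure D2:**
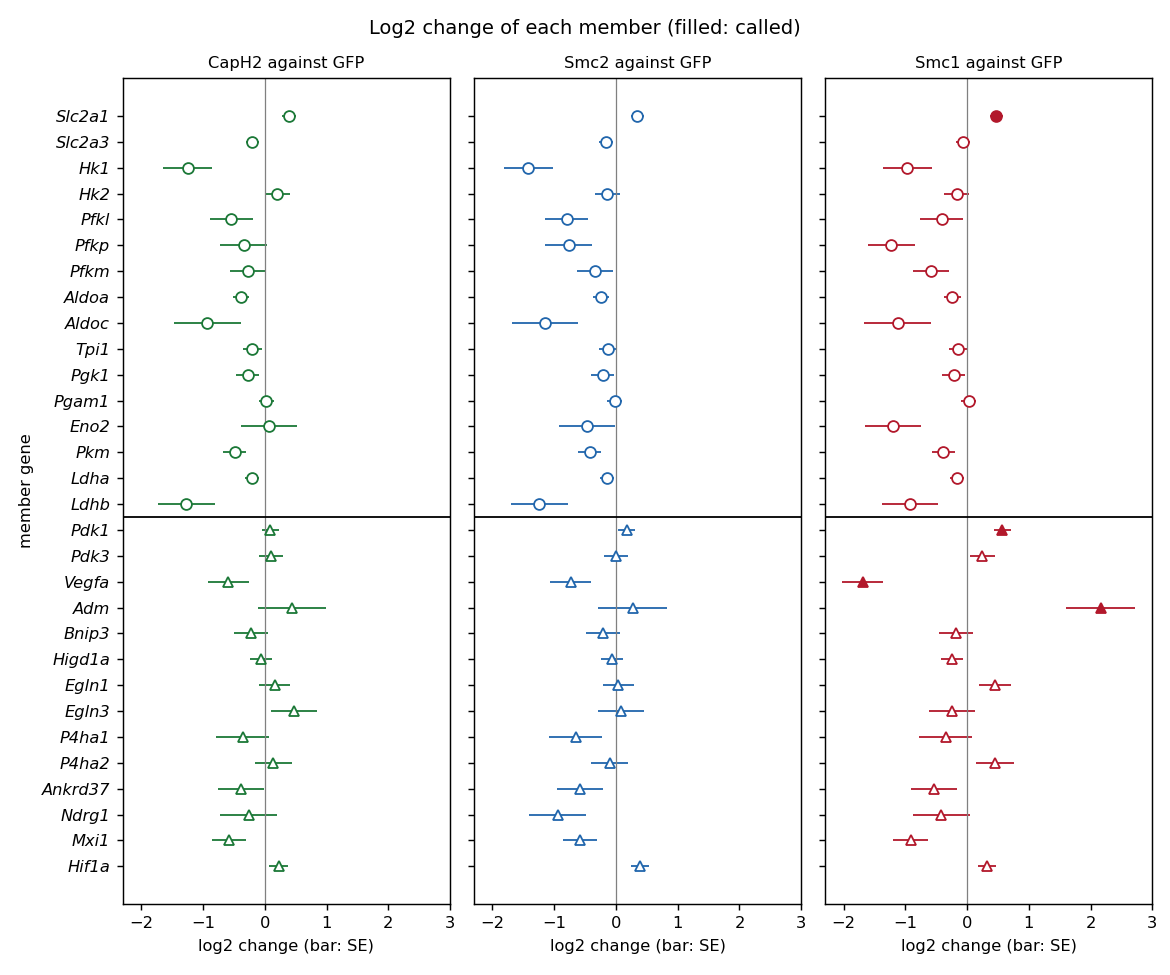
Log2 change of each member against GFP in the CapH2, Smc2 and Smc1 knockdowns (points), with its limma standard error (bars, n = 2 per group); circles are the glycolysis arm, triangles the hypoxia arm, and filled points passed the test. The only filled points are Slc2a1, Pdk1, Adm and Vegfa in the Smc1 panel, and the widest bars belong to Adm and Aldoc.

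Slc2a1, the main glucose transporter of many growing cells, measured 16931 and 19513 on the GFP arrays and 25783 and 24749 on the Smc1 arrays. On the CapH2 arrays it measured 23377 and 24217 (hairpins 3 and 4), and on the Smc2 arrays 24545 and 21819 (hairpins 1 and 2). All 6 knockdown arrays were higher than both GFP arrays. The rise in the Smc1 knockdown was 0.47 (SE 0.11, adjusted p = 0.0216), from 18222 ± 1826 to 25266 ± 731 (SD, n = 2 per group). In the CapH2 and Smc2 knockdowns it was 0.39 and 0.35 higher and was not called (adjusted p = 0.265 and 0.278). Its other probe sets gave 0.63 and 0.84 in the Smc1 knockdown. The call in the Smc1 knockdown was lost without Smc1 replicate 1 (0.44, adjusted p = 0.165), Smc1 replicate 2 (0.50, 0.0726) or GFP replicate 1 (0.37, 0.12), and with the Actb ratio as a covariate (0.37, 0.147). Slc2a3, a transporter of high affinity for glucose, had log2 changes of -0.20, -0.16 and -0.06 in the CapH2, Smc2 and Smc1 knockdowns, the last of which turned to 0.06 under quantile normalization.

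Of the 8 measured enzymes of upper glycolysis, which consume ATP and split the sugar, none was called in any of the 5 comparisons. All 8 had negative log2 changes in the Smc2 and Smc1 knockdowns and 7 in the CapH2 knockdown, with medians of -0.55, -0.50 and -0.37. Hk1, a hexokinase that traps glucose as its phosphate, showed the largest differences of this group in both condensin knockdowns. The GFP arrays read 1617 and 2160 and the Smc1 arrays 744 and 1203. CapH2 hairpin 3 read 575 and hairpin 4 read 1048, while Smc2 hairpin 1 read 469 and hairpin 2 read 1010. Each of these 6 arrays lay below both GFP arrays. Its log2 changes were -1.25, -1.42 and -0.97 (SE 0.39, adjusted p = 0.302, 0.238 and 0.126). Hk2, the hexokinase most often named as a Hif target, overlapped with GFP in all 3 knockdowns, at 0.20, -0.14 and -0.17.

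The phosphofructokinases catalyse the committed step. Pfkp, the platelet type, measured 6258 and 7470 on GFP, 1912 and 4429 on Smc1, 4327 and 6693 on CapH2 and 3093 and 5194 on Smc2. Both Smc1 and both Smc2 arrays were below GFP, and CapH2 hairpin 4 lay between the GFP arrays. In the Smc1 knockdown its log2 change of -1.23 (SE 0.38) missed the threshold with an adjusted p of 0.0552, and it passed under median centring (-1.21, 0.0369). Pfkl, the liver type, gave -0.54, -0.80 and -0.41, and Pfkm, the muscle type, -0.28, -0.34 and -0.59. Aldolase cleaves the resulting sugar phosphate. Aldoc measured 3166 and 2715 on GFP, 858 and 2716 on CapH2, 771 and 2236 on Smc2 and 1111 and 1601 on Smc1, with log2 changes of -0.93, -1.15 and -1.13 (SE 0.54). Its CapH2 hairpin 4 array lay at the level of GFP replicate 2, while hairpin 3 was far lower. Aldoa, the main form in most tissues, was at -0.39, -0.25 and -0.24, and Tpi1, which interconverts the triose phosphates, at -0.20, -0.13 and -0.14.

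In lower glycolysis, where ATP is regained, 4 enzymes were tested and none was called. Pgk1, which makes the first ATP, gave -0.28, -0.21 and -0.22, and Pkm, pyruvate kinase, -0.49, -0.42 and -0.39. Pkm lay below both GFP arrays in all 3 knockdowns, with adjusted p-values of 0.36, 0.395 and 0.19. Pgam1, a mutase, moved least of all members: its arrays spanned 14230 to 16612, a 1.17-fold range. Eno2, the neuronal enolase, measured 118 and 111 on GFP, 75.3 and 189 on CapH2, 50.3 and 117 on Smc2 and 41.6 and 39.8 on Smc1. Both Smc1 arrays were below all 6 others, at a log2 change of -1.20 (SE 0.46, adjusted p = 0.105). Eno2 was brighter than the array median on only 5 of 8 arrays, so the size of this difference is not firm.

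Gapdh, the oxidising enzyme of the pathway, was read from 3 array control probe sets that lie toward the 3' end, the middle and the 5' end of its transcript. The 3' set measured 33053 and 27176 on GFP, 22715 and 24426 on CapH2, 24495 and 28043 on Smc2, and 23857 and 27642 on Smc1. Both CapH2 arrays were below both GFP arrays, and so they were for the middle and 5' sets. The Smc2 and Smc1 arrays overlapped with GFP for the 3' and 5' sets. For the middle set all 4 of these arrays, at 25886 to 30241, lay below both GFP arrays, at 36534 and 30472. The log2 differences of the 3 sets were -0.35, -0.34 and -0.29 in CapH2, -0.19, -0.24 and -0.14 in Smc2 and -0.22, -0.25 and -0.20 in Smc1, without a test.

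Lactate dehydrogenase is built from 2 kinds of subunit. Ldha, the one raised by Hif, was close to GFP, at -0.21, -0.14 and -0.16. Ldhb, the subunit that favours the return of lactate to pyruvate, measured 18594 and 14959 on GFP and 7927 and 9702 on Smc1. It read 4370 on CapH2 hairpin 3 and 10883 on hairpin 4, 4278 on Smc2 hairpin 1 and 11614 on hairpin 2. All 6 knockdown arrays were below both GFP arrays. Its log2 changes were -1.27, -1.24 and -0.93 (SE 0.46), none of them called (adjusted p = 0.34, 0.331 and 0.204). All 4 of its probe sets gave the same picture, from -1.17 to -1.27 in CapH2 and from -0.79 to -0.93 in Smc1. With the Actb ratio as a covariate Ldhb was called lower in the Smc2 knockdown (-0.83, limma adjusted p = 0.0485). That same fit called Ldhb higher in Smc1 than in the condensin knockdowns (0.88, 0.00271), where the fit without the ratio gave 0.33 and no call. With only the Smc1 and GFP arrays in the fit it was called lower in Smc1 (-0.93, 0.00209).

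**Figure D3:**
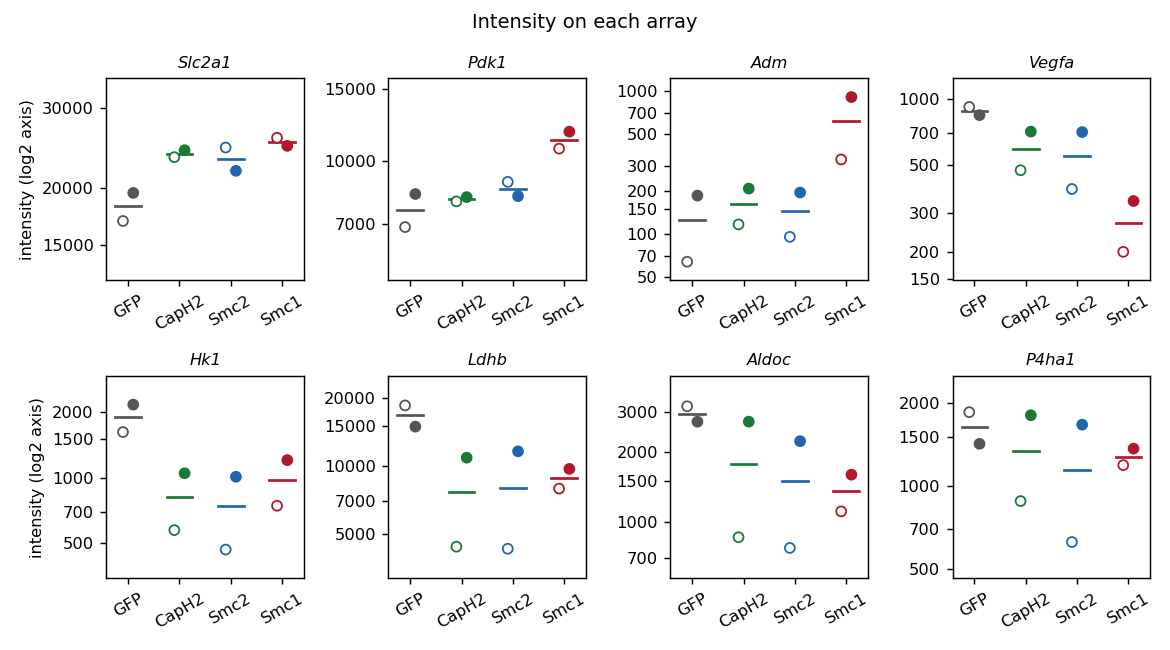
Intensity on each array (points, log2 axis) and arithmetic mean of the 2 arrays (lines) for 8 members in the 4 groups; open points are hairpin or replicate 1 (CapH2 hairpin 3), filled points hairpin or replicate 2 (CapH2 hairpin 4). The upper row holds the 4 called members, with Adm at 331 and 906 on the Smc1 arrays, and in the lower row the open point of each condensin knockdown lies well below the filled one.

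In the hypoxia arm, the pyruvate dehydrogenase kinases switch off the entry of pyruvate into the mitochondrion. Pdk1 measured 6887 and 8299 on GFP, 7961 and 8155 on CapH2, 8887 and 8200 on Smc2, and 10718 and 11793 on Smc1. Both Smc1 arrays stood above all 6 others. The rise against GFP was 0.57 (SE 0.14, adjusted p = 0.0227), from 7593 ± 999 to 11256 ± 760 (SD, n = 2 per group). Its probe sets disagreed, however: another one gave 0.72 and the remaining ones -0.52 and -0.30. The one at -0.52 read 39.8 and 169 on the Smc1 arrays and 121 and 139 on the GFP arrays. There Smc1 replicate 1 lay below its array's median of 67.1 and replicate 2 above both GFP arrays, so the direction of that probe set is not firm. The one at -0.30 was brighter than the array median on all 8 arrays. It read 826 and 882 on the Smc1 arrays, below all 6 others, against 1037 and 1067 on GFP, so it goes against the rise. The mean over all 4 was 0.12 (adjusted p = 0.743). The call was also lost without Smc1 replicate 1 (0.64, adjusted p = 0.11), Smc1 replicate 2 (0.50, 0.113) or GFP replicate 1 (0.44, 0.148), and with the Actb ratio as a covariate (0.51, 0.112). Pdk3 gave 0.09, 0.01 and 0.25, and its Smc1 arrays lay above both GFP arrays without a call.

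The secreted factors of the arm went opposite ways in the Smc1 knockdown. Vegfa, which drives vessel growth, measured 918 and 842 on GFP, 471 and 708 on CapH2, 387 and 705 on Smc2, and 200 and 341 on Smc1. All 6 knockdown arrays were below both GFP arrays, and both Smc1 arrays were below the other 4. It fell by 1.69 in the Smc1 knockdown (SE 0.33, adjusted p = 0.0115), from 880 ± 53.6 to 270 ± 99.9 (SD, n = 2 per group). Its other probe set gave -1.60, but read 14.7 and 144 on Smc1 against 204 and 189 on GFP. There Smc1 replicate 1 lay below its array's median of 67.1, so that probe set gives no firm size. On the probe set used, the values of -0.59 and -0.73 in CapH2 and Smc2 were not called (adjusted p = 0.476 and 0.397). The call was lost without Smc1 replicate 1 (-1.33, adjusted p = 0.116), GFP replicate 1 (-1.63, 0.104) or GFP replicate 2 (-1.75, 0.0643), and with the Actb ratio as a covariate, where the change was -0.93 (0.0751).

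Adm encodes adrenomedullin, a peptide that widens vessels. It measured 63.6 and 185 on GFP, 116 and 207 on CapH2, 95.0 and 194 on Smc2, and 331 and 906 on Smc1. Both Smc1 arrays exceeded all 6 others, and the 2 arrays of a group lay far apart, by 1.41 on the log2 scale in Smc1 and by 1.33 in GFP. The rise was 2.16 (SE 0.56, adjusted p = 0.0311). The other probe set gave 2.36, but it read 36.2 and 58.4 on GFP, below the medians of both arrays, and gives no firm size. On the probe set used, GFP replicate 1 lay below its array's median of 69.4, so the starting level and the size of the rise are not firm. The call was lost without Smc1 replicate 1 (2.87, adjusted p = 0.0602), Smc1 replicate 2 (1.46, 0.164) or GFP replicate 1 (1.49, 0.233).

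Bnip3 and Higd1a encode mitochondrial proteins, the former a trigger of mitochondrial clearance. Bnip3 gave -0.22, -0.21 and -0.19 and overlapped with GFP in all 3 knockdowns. Higd1a gave -0.07, -0.06 and -0.25, of which the first 2 lay at or above 0 under median centring. Another Higd1a probe set, dimmer but above the array median on all 8 arrays, gave -0.51, -0.66 and -0.47. On that probe set every knockdown array lay below both GFP arrays. Egln1 and Egln3 encode prolyl hydroxylases that mark Hif for destruction, and they are themselves Hif targets. Egln1 gave 0.16, 0.04 and 0.45, and Egln3 gave 0.48, 0.09 and -0.25, all overlapping with GFP. The other Egln3 probe set stood at -1.33 in the Smc1 knockdown, where it read 48.7 and 353 against 243 and 568 on GFP. On it Smc1 replicate 1 lay below its array's median of 67.1 and replicate 2 lay between the GFP arrays, so this value is not firm.

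Hif1a, the regulated alpha subunit, measured 3776 and 3569 on GFP, 4564 and 4042 on CapH2, 5085 and 4554 on Smc2, and 4949 and 4269 on Smc1. All 6 knockdown arrays were above both GFP arrays. The log2 changes of 0.23, 0.39 and 0.32 (SE 0.15) were not called (adjusted p = 0.544, 0.348 and 0.177). Another of its probe sets that was bright on all 8 arrays gave -0.15, -0.16 and -0.18, so the direction was not shared by the probe sets. The level of its mRNA does not give that of the protein, which is set by its destruction.

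P4ha1 and P4ha2 encode subunits of the enzyme that hydroxylates collagen. P4ha1 measured 1849 and 1421 on GFP, 881 and 1802 on CapH2, 627 and 1666 on Smc2, and 1189 and 1365 on Smc1. In both condensin knockdowns 1 array lay far below GFP and the other within its range. P4ha2 measured 520 and 499.6 on GFP and 703 and 702 on Smc1, and its log2 change of 0.45 was not called (adjusted p = 0.346). Of the remaining targets, Mxi1, a Myc antagonist, measured 1803 and 1906 on GFP, 1030 and 1484 on CapH2, 1046 and 1447 on Smc2, and 750 and 1266 on Smc1. All of its knockdown arrays were below both GFP arrays, and in Smc1 the log2 change of -0.92 (SE 0.28) came to an adjusted p of 0.0555, and passed under median centring (-0.90, 0.04). Ankrd37 gave -0.39, -0.58 and -0.53, and Ndrg1, a stress-induced gene, gave -0.26, -0.94 and -0.42, neither called.

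The arms were also followed array by array, as the median over their genes of the log2 difference from the mean of the GFP arrays. For the glycolysis arm it was -0.45 on CapH2 hairpin 3 and -0.13 on hairpin 4, -0.38 on Smc2 hairpin 1 and -0.23 on hairpin 2, and -0.52 and -0.10 on Smc1 replicates 1 and 2. The hypoxia arm stood at -0.19 and 0.16, at -0.43 and 0.12, and at -0.30 and 0.14 on the same arrays. The glycolysis arm was thus below 0 on all 6 knockdown arrays, whereas the hypoxia arm was below 0 on 1 array of each knockdown and above 0 on the other. The SD between the arrays of a group was 0.19 for the glycolysis arm and 0.28 for the hypoxia arm. The lower array of each knockdown also had the lower Actb ratio of its pair, and the part of that ratio in these levels was not tested beyond the covariate fit above.

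**Figure D4:**
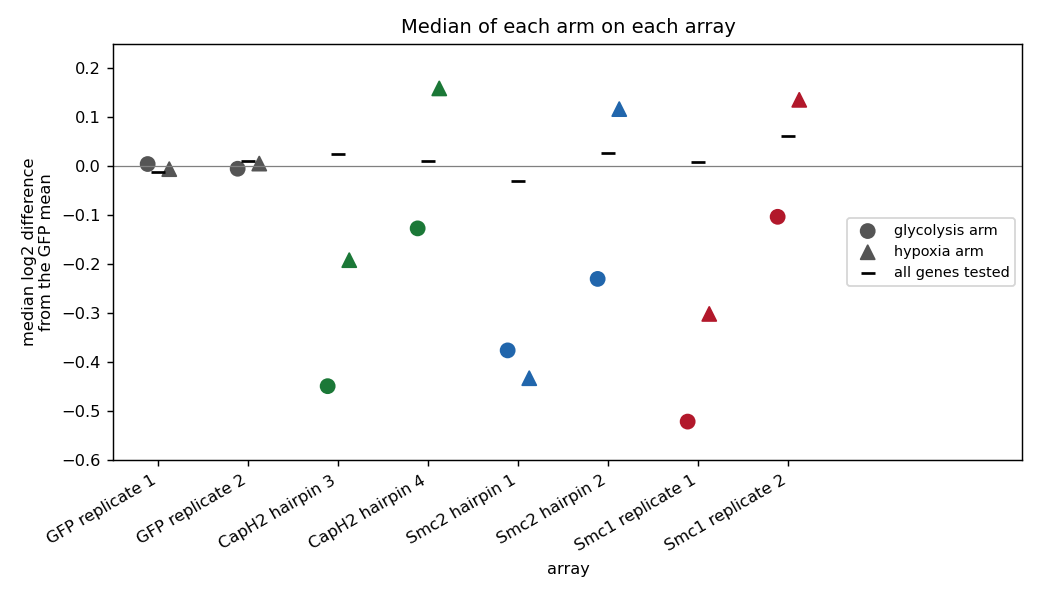
Median over the glycolysis arm (circles, 16 genes), the hypoxia arm (triangles, 14 genes) and all 12394 genes tested (dashes) of the log2 difference from the mean of the GFP arrays, on each of the 8 arrays; under median centring the Smc2 median of the hypoxia arm over both hairpins lies at 0.02. The circles of the 6 knockdown arrays lie between -0.52 and -0.10, and the triangles lie below 0 on the first array of each knockdown and above 0 on the second.

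The members differed between the 2 arrays of every knockdown group, with 2 hairpins in CapH2 and Smc2 and 1 hairpin in Smc1. Each hairpin or replicate is 1 array, so the differences are described without a test, and their numbers have no order. On CapH2 hairpin 4, 28 of 30 members were higher than on hairpin 3, where 48.6% of all genes were. On Smc2 hairpin 2, 24 of 30 were higher than on hairpin 1, where 55.2% of all genes were. Between the Smc1 replicates, which share a hairpin, 24 of 30 were higher on replicate 2, beside 55.6% of all genes, and between the GFP replicates 15 of 30, beside 52.6%. The same 24 members were higher in both condensin pairs (80%, beside 35.1% of all genes). The median difference over the members was 0.44 in both CapH2 and Smc2, 0.35 between the Smc1 replicates and 0.00 between the GFP replicates. Over all genes the same medians were -0.01, 0.06, 0.04 and 0.02. Across all genes, which are not independent replicates, the differences of the CapH2 and Smc2 pairs had a Pearson r of 0.41. With the Smc1 pair it was 0.26 for CapH2 and 0.21 for Smc2, and with the GFP pair -0.19 and -0.15. The same lean was thus seen between the Smc1 replicates, which share 1 hairpin, but not between the GFP replicates, which also share 1.

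A difference of 2-fold or more in both condensin pairs was seen for 5 of 30 members, beside 0.823% of all genes. These were Aldoc (3.12-fold in CapH2 and 2.86-fold in Smc2), Ldhb (2.48 and 2.71), Ndrg1 (2.40 and 2.11), P4ha1 (2.03 and 2.62) and Eno2 (2.24 and 2.01). Eno2 lay below the median of the array on Smc2 hairpin 1 (50.3 against 62.5), so its fold there is not firm and 4 members stand without it. The 5 come from both arms, 3 of 16 glycolysis genes and 2 of 14 hypoxia genes. Counted in 1 pair, 6 members passed 2-fold in CapH2, beside 1.94% of all genes, and 7 in Smc2, beside 4.81%: Ankrd37 did so only in CapH2 (2.15 and 1.39), and P4ha2 (1.07 and 2.11) and Hk1 (1.80 and 2.12) only in Smc2. Hif1a was lower on the same hairpins, at 0.89 and 0.90 of the other. Slc2a1 and Pdk1, which were called in the Smc1 knockdown, differed little between hairpins (1.04 and 0.89, and 1.02 and 0.92). The count of 5 was 2 under median centring, and 3 with a pseudocount of 64 or with the mean over probe sets. These hairpin differences enter the spread against which every log2 change above was tested.

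**Figure D5:**
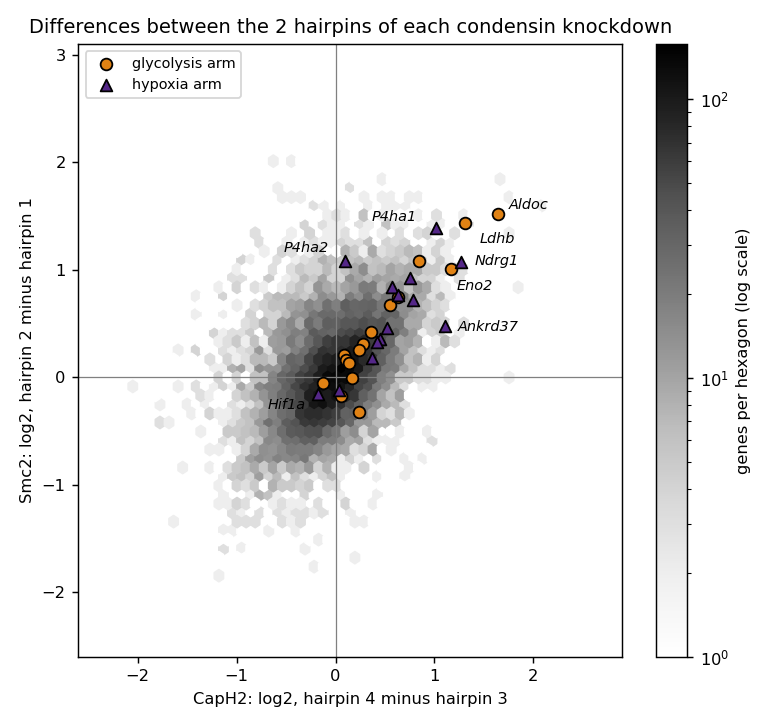
Log2 difference between the CapH2 hairpins (x axis, hairpin 4 minus hairpin 3) and between the Smc2 hairpins (y axis, hairpin 2 minus hairpin 1) for all 12394 genes (grey hexagons, darker for more genes) and for the 30 members (circles and triangles). 24 members lie in the upper right quadrant, Aldoc farthest out, and Hif1a lies in the lower left.

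The knockdowns were then compared directly. In the Smc1 knockdown against both condensin knockdowns, taken as the mean of their groups, 2 of 30 members were called, beside 7.75% of all genes. Those 961 genes became 9 without Smc1 replicate 1, 384 without Smc1 replicate 2, 467 without CapH2 hairpin 4, 582 without GFP replicate 1 and 567 without GFP replicate 2. Both were higher and 0 were lower, beside 5.53% and 2.23%. Pdk1 was higher by 0.44 (SE 0.12, adjusted p = 0.0496) and Adm by 1.80 (SE 0.48, adjusted p = 0.0496), and both Smc1 arrays were above all 4 condensin arrays for each. In all, 4 members had both Smc1 arrays above the 4 condensin arrays and 2 had both below, beside 20.5% and 14.6% of all genes. The calls of Pdk1 and Adm were each lost in 7 of the 8 fits that left out 1 array, at adjusted p-values up to 0.27 for Pdk1 and 0.333 for Adm. With the mean over all its probe sets Pdk1 stood at 0.12 (adjusted p = 0.749). Vegfa missed the threshold at -1.03 (SE 0.29, adjusted p = 0.0593) and passed it under quantile normalization (-1.12, 0.0417). Slc2a1 differed by 0.11 (SE 0.10, adjusted p = 0.556), so its rise in Smc1 was not shown to differ from that in the condensin knockdowns. The median of the glycolysis arm was 0.03 and turned to -0.04 under median centring, and that of the hypoxia arm was 0.10. In CapH2 against Smc2, limma called 0 of 30 members, beside 0.00807% of all genes, and 0 members had an unadjusted p below 0.05, beside 1.03%. The arrays of CapH2 lay above both Smc2 arrays for 1 member and below both for 2, beside 12.5% and 10.3% of all genes.

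Further genes of the same pathways were taken from lists by name. Among 28 tested genes of 39 in isozymes, side branches and pyruvate transport, 1 was called in the Smc1 knockdown: Mpc1, a subunit of the mitochondrial pyruvate carrier, measured 2808 and 2345 on GFP and 909 and 1176 on Smc1, and fell by 1.30 (SE 0.29, adjusted p = 0.0183). Among 35 tested of 45 further Hif targets, 3 were called. Rragd, a GTPase of nutrient signalling to mTORC1, measured 367 and 468 on GFP and 3880 and 2853 on Smc1, and rose by 2.96 (SE 0.35, adjusted p = 0.00235). Pnrc1, a nuclear receptor coactivator, rose by 1.03 (adjusted p = 0.00711) and Kdm3a, a histone demethylase, fell by 0.72 (adjusted p = 0.0127). Without Smc1 replicate 1 limma called none of these but Rragd (Mpc1 -1.12, adjusted p = 0.152; Pnrc1 0.98, 0.0796; Kdm3a -0.64, 0.123). Without GFP replicate 1 the same 3 calls were lost (adjusted p = 0.151, 0.076 and 0.0683), and without GFP replicate 2 those of Mpc1 (0.0716) and Kdm3a (0.0793). With the mean over all its probe sets Pnrc1 stood at 0.32 (adjusted p = 0.359), and with the Actb ratio as a covariate Mpc1 stood at -0.68 (0.145). The shares called, 1 of 28 and 3 of 35, can be read beside the 14% of all genes.

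Of 16 tested genes of 19 that form or regulate Hif, 3 were called in the Smc1 knockdown, beside 14% of all genes. Arnt, the constant partner of the Hif alpha subunits, measured 1782 and 1617 on GFP, 653 and 988 on Smc1, and between 1143 and 1820 on the condensin arrays. Both Smc1 arrays were below all 6 others, and the change against GFP was -1.06 (SE 0.25, adjusted p = 0.0231). Arnt2, its paralog, measured 50.3 and 52.4 on GFP, below the array medians, and 258 and 237 on Smc1, and rose by 1.97 (SE 0.28, adjusted p = 0.00367). Crebbp, a coactivator of Hif and many other factors, rose by 0.91 (adjusted p = 0.0147). The remaining 13 were not called. All 3 calls were lost without Smc1 replicate 1 (adjusted p = 0.191 for Arnt, 0.0545 for Arnt2 and 0.0969 for Crebbp). Those of Arnt and Crebbp were lost without GFP replicate 1 (0.159 and 0.135), that of Arnt also without GFP replicate 2 (0.0913) and that of Crebbp without Smc1 replicate 2 (0.066). With the mean over all probe sets Arnt stood at -0.55 (adjusted p = 0.231) and Arnt2 at 0.54 (0.236), and with the Actb ratio as a covariate Arnt stood at -0.56 (0.185).

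Among 6 tested genes of 7 in the Myc family list, Mga, a repressor that pairs with Max, fell by 1.00 (adjusted p = 0.0128) and was the 1 gene called, beside 14% of all genes. Among 27 tested of 29 genes of pyruvate dehydrogenase and the citric acid cycle, limma called 0 in Smc1 against GFP and 5 had an unadjusted p below 0.05, beside 14% and 31.2% of all genes. Of the 27, 21 had negative log2 changes, beside 5915 of 12394 genes in all, and the median was -0.24, beside 0.03. Among 7 tested of 9 genes of the pentose phosphate pathway, Pgd, which yields NADPH, rose by 0.67 (adjusted p = 0.0497) as the 1 call. The call of Pgd was lost without any 1 of the Smc1 or GFP arrays (adjusted p up to 0.277), and with the Actb ratio as a covariate it stood at 0.25 (0.408). The call of Mga was lost without Smc1 replicate 1 (0.105), GFP replicate 1 (0.0963) or GFP replicate 2 (0.0731). No gene of these 6 lists was called in the CapH2 or Smc2 knockdown.

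Markers of other cell types were read mainly in the Smc1 knockdown, in which the 4 members were called. Of the feeder fibroblast markers 14 of 22 were tested and 3 were called higher, beside 9.3% of all genes tested. Of the 21 measured, 11 had both Smc1 arrays above both GFP arrays and 2 had both below, beside 34.5% and 28.4% of all genes tested. The 11 include Lum and Dcn, which lay below the array median on every array. Their summed intensity was 26559 and 20711 on Smc1 against 11874 and 8804 on GFP, but most of it was Lgals1, a lectin made by many cell types. Without Lgals1 the sums were 2980 and 2639 against 1845 and 1992, and Postn, a matrix protein of fibroblasts, measured 19.5 and 26.1 on Smc1 against 68.1 and 73.1 on GFP.

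The trophectoderm markers summed to 54014 and 39077 on Smc1 against 16895 and 23629 on GFP. Without Krt18, the brightest, the sums were 28229 and 22325 against 8171 and 12578. Of the 9 tested, 2 were called higher, beside 9.3% of all genes tested. Of the 10 measured, 6 had both Smc1 arrays above both GFP arrays and 0 had both below, beside 34.5% and 28.4% of all genes tested. Among the transcription factors of that lineage Cdx2 measured 7.25 and 28.8 on GFP and 240 and 118 on Smc1. Eomes, at 122 and 321 on GFP and 147 and 201 on Smc1, overlapped between the groups, as did Hand1 and Elf5. The primitive endoderm markers summed to 16567 and 16998 on Smc1 against 9525 and 12919 on GFP. Of the 11 tested, 2 were called higher, beside 9.3% of all genes tested, and the call of Pdgfra was also counted among the fibroblast markers. Of the 12 measured, 8 had both Smc1 arrays above both GFP arrays, beside 34.5% of all genes tested. Gata6, a transcription factor of that lineage, was lower on both, at 110 and 94.0 against 131 and 176. The median log2 changes of the tested primitive endoderm, feeder and trophectoderm markers were 0.52, 0.46 and 1.04 in Smc1. In CapH2 they were 0.60, 0.31 and -0.18, and in Smc2 -0.03, 0.11 and -0.23. None of these markers was called in CapH2 or Smc2, so a shift of the first 2 lists was not particular to Smc1. The part of these cell types, and of the fall in stem cell markers, in the changes of Slc2a1, Pdk1, Adm and Vegfa was not tested.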

How the data were processed

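RNA was measured on 8 Affymetrix mouse 430 2.0 arrays in 4 groups of 2. The labels' protocols give 100 ng of total RNA, amplified and biotin-labelled with a 3' IVT kit. The deposited values are probe set intensities on a linear scale, from 0.0461 to 54756, which the authors had already summarised and scaled; the trimmed means of the 8 arrays are nearly equal, and how the probes were summarised is not stated in those protocols. Of 44903 probe sets, 34771 carry 1 gene symbol, 926 several and 9206 none in the platform annotation, and 34554 matched RefSeq by gene ID. The 64 array controls were left out of the tests.

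The brightest probe set (mean over all arrays) stood for each of 18140 genes. It had to exceed the array median on 2 of 8 arrays. Values were tested as log2(value + 16) with limma 3.58.1 in R 4.3.3 (lmFit, eBayes with an intensity trend) on all 8 arrays, with 1 mean per group. The pseudocount of 16 understates changes of dim genes. No depth applies to arrays; their number limits the precision. The p-values rest on the spread between the 2 arrays of each group, pooled over groups, which mixes hairpins with replicates (4 residual degrees of freedom). The procedure was tested on simulated data.

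The members and lists were chosen with earlier results of these data known. All members are named, the called ones with every array value. From the other lists up to 4 called genes per comparison are named, those with the smallest adjusted p, beside the hairpin targets and the Actb and Gapdh controls, and promoters are printed for up to 3 called members per arm in the comparison with most calls. The lists are isozymes and side branches, further Hif targets, Hif regulators, the Myc family, pyruvate dehydrogenase with the citric acid cycle, and the pentose phosphate pathway, with markers of stem cells, feeders, trophectoderm and primitive endoderm. Alternatives were other scalings, pseudocounts and filters, the mean over probe sets, no trend, the compared groups alone, the Actb ratio as a covariate, a replicate block and leaving out each array.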

Additional observations from a re-analysis of the deposited data

Results flagged for a closer look

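The difference between the cohesin knockdown (Smc1) and the mean of both condensin knockdowns (CapH2 and Smc2) was itself tested. It passed limma's test for 7 genes of the members and pathway lists, beside 7.75% of all genes tested. Calls among the cell type markers are not counted here. The genes tested were 30 members and 28, 35, 16, 6, 27 and 7 genes of the lists. Both called members were higher in Smc1: Pdk1 by 0.44 (adjusted p = 0.0496) and Adm by 1.80 (0.0496) on the log2 scale. Of the genes of other lists, Rragd was higher by 1.82 (0.00978) and Pnrc1 by 0.84 (0.0136). Kdm3a was lower at -0.51 (0.0397), Arnt at -0.82 (0.0496) and Dld, a subunit shared by several mitochondrial dehydrogenases, at -0.57 (0.0444). Dld measured 1170 and 1063 on the Smc1 arrays and 1617 to 1737 on the 4 condensin arrays. With the mean over all its probe sets it stood at -0.07 (adjusted p = 0.868).

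Of the 8 fits that left out 1 array, the call was lost in 7 for Pdk1, Adm, Kdm3a and Dld, in 6 for Arnt, in 2 for Pnrc1 and in 1 for Rragd. Without Smc1 replicate 1, Rragd stood at 1.60 (adjusted p = 0.165) and Pnrc1 at 0.79 (0.186), and without Smc1 replicate 2, Pnrc1 stood at 0.88 (0.0637). No group has enough arrays for a check of single arrays that stand apart.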

How the results depend on the processing

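With the Actb ratio as a covariate the median log2 change of the glycolysis arm became 0.0246 in CapH2 and 0.0482 in Smc1 against GFP. That of the hypoxia arm became 0.36 in CapH2, 0.52 in Smc1 and 0.44 in CapH2 against Smc2. The glycolysis calls were then 1 in Smc2, 0 in Smc1 and 1 in Smc1 against the condensin knockdowns, and the hypoxia calls 1 in Smc1 and 4 in Smc1 against the condensin knockdowns. Of all genes the same fit called 0.178%, 4.74% and 13.3% in these comparisons. The 1 glycolysis call in Smc1 against GFP became 0 with no filter or no intensity trend, beside 6.92% and 10.5% of all genes. It became 2 under median centring, beside 14%, and 6 (1 higher, 5 lower) with only the groups compared, beside 21.8%. The 3 hypoxia calls in Smc1 became 1 with the mean over probe sets or no trend, beside 9.54% and 10.5% of all genes. The 2 hypoxia calls in Smc1 against the condensin knockdowns became 1 with the filter on all 8 arrays or only the groups compared. Of all genes these fits called 8.45% and 4.82%, beside 7.75% in the main fit. The same calls became 0 with the mean over probe sets, no filter, no trend or a pseudocount of 1. There 5.55%, 3.27%, 5.28% and 7.07% of all genes were called. The count of members differing 2-fold between both hairpin pairs, whose alternatives were chosen after seeing the data, was 2 under median centring and 3 with a pseudocount of 64 or the mean over probe sets. Under quantile normalization the glycolysis arm stood at -0.24 on CapH2 hairpin 3. No value reversed among those called, and beyond what each alternative's construction shows the cause was not tested.

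Leaving out each array in turn, the glycolysis calls ranged from 0 to 2 in Smc1 and from 0 to 2 in Smc2 against GFP, and the hypoxia calls from 0 to 4 in Smc1 and from 0 to 2 in Smc1 against the condensin knockdowns. The glycolysis median in Smc1 ranged from -0.52 to -0.10, and the hypoxia median from -0.30 to 0.14 in Smc1 and from -0.43 to 0.12 in Smc2. Over the alternatives that kept all arrays, Slc2a1 in Smc1 ranged from 0.37 to 0.65 (called in 8 of 11), Pdk1 from 0.12 to 0.63 (8 of 11), Vegfa from -1.77 to -0.93 (9 of 11) and Adm from 1.80 to 2.89 (8 of 10; not with no filter, adjusted p = 0.0582, or no trend, 0.0641). Over all genes, 1734 were called in Smc1 against GFP, 1183 with the mean over probe sets, 588 with the Actb covariate, 2701 with only the groups compared and 138 to 2190 when 1 array was left out. Against the condensin knockdowns 961 were called, 594 with no filter, 598 with only the groups compared, 1650 with the Actb covariate and 9 to 1163 when 1 array was left out.

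Smc1 and GFP share replicate numbers. With a replicate block the Smc1 calls against GFP were 1 in the glycolysis arm and 3 in the hypoxia arm, as without it, with 1366 genes called in all; the block ended the calls of Pgd (adjusted p = 0.0758) against GFP and of Arnt (0.0769) and Dld (0.0538) against the condensin knockdowns. The replicate differences of Smc1 and GFP correlated at r = 0.0667 over genes, so these 4 arrays were not treated as pairs.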
